A study of Mus musculus with 2 samples.

Results

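Axon guidance genes are described here as a set of 71 ligands and receptors among the 32285 genes of the expression matrix. The members were chosen by symbol alone: semaphorins of classes 3 to 7, plexins, neuropilins, Slits, Robos, netrins and netrin-Gs, Unc5 receptors, Dcc, Eph receptors and ephrins. The study profiled hypothalamic neurons by single-nucleus RNA sequencing, with nuclei of wild type male C57BL/6J mice aged 10 to 12 weeks sorted by an antibody to NeuN, which marks neuronal nuclei. Tissue was pooled in 1 gene expression library with a matching hashtag library, in which a barcoded antibody marks the nuclei of 1 preparation. A legend of the study gives 6 mice for ARC nuclei, and how many gave the PVH-hashtag nuclei is not known. The hashtag rows carry the names ARC and PVH, the usual short forms of the arcuate nucleus and the paraventricular hypothalamic nucleus, whereas the sample labels name the ARC only. The hashtags do not assign nuclei to mice, so there is 1 pooled sample of each side and no replicate. No test was therefore made, and differences are given as ratios.

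Of 11409 barcodes, 10170 passed the filters of the study, 3767 were assigned to the ARC hashtag and 3074 to the PVH hashtag, and 6737 of these lay in 20 neuronal clusters (3687 ARC, 3050 PVH). Another 104 nuclei in 1 cluster carried markers of astrocytes and oligodendrocyte lineage cells. Neuronal nuclei held a median of 4848 unique molecular identifiers (UMIs, each 1 captured RNA molecule) on the ARC side and 5047 on the PVH side. Levels are CPM, counts per 1000000, from UMIs summed over the nuclei of a group. Values in parentheses are exact 95% intervals, from the Poisson distribution for levels and from the binomial distribution for ratios, and they cover counting error only. The ARC label was checked against markers and held clusters with Agrp and Npy (AGRP-like, 757 ARC and 10 PVH nuclei) and with Pomc (POMC-like, 286 and 5). The PVH hashtag held most nuclei of the 4 Sim1-like clusters, and Sim1, a transcription factor of the PVH, was at 416, 283, 225 and 223 CPM in clusters 18, 20, 8 and 7. It also held 706 nuclei of cluster 2, a GABAergic cluster led by Meis2, Sp8 and Pax6, so PVH-hashtag neurons are more than PVH neurons. Free RNA may have been present in the droplets and was not measured directly. Oxt, the oxytocin gene, was at 462 CPM or more in every neuronal cluster and reached 2039 CPM in the Sim1-like cluster 20, and Agrp was at 107 CPM or more in every neuronal cluster and at 281 CPM in the AGRP-like cluster. The share of free RNA in the levels of the guidance genes was not tested, and the level in the lowest cluster is given below for those described in most depth.

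Guidance cues are secreted or membrane-bound ligands that steer growing axons through receptors on the growth cone. Slits repel through Robo receptors, class 3 semaphorins act through neuropilin and plexin complexes, netrin-1 attracts through Dcc and repels through Unc5 receptors, and ephrins signal with Eph receptor tyrosine kinases in both directions. In the hypothalamus they take part in the placing of neurons and in the growth of arcuate axons towards the PVH, and many stay expressed in adult neurons, where they act at synapses.

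The set was broadly but unevenly expressed. Of the 71 members, 55 had 100 or more UMIs in neurons, the minimum for a ratio, which is 77.5% against 43.5% of all genes. Another 14 had 1 to 99 UMIs (Efna1, Efna2, Efna4, Epha1, Epha8, Ephb3, Ephb4, Ntn3, Ntn5, Plxnb3, Robo3, Sema3b, Sema3f and Sema3g), and 2 had none (Epha2 and Robo4). Together the members gave 251784 UMIs, 0.702% of all neuronal UMIs. The 5 with most UMIs, Unc5d, Dcc, Unc5c, Robo1 and Epha5, held 48.2% of these. Long genes give many reads from nuclear pre-mRNA, and across the 69 members with a UMI the CPM followed the length of the gene (Spearman correlation 0.78, a description across genes of 1 pool). CPM in the text therefore serves to compare groups of nuclei for 1 gene, and levels are compared between genes as CPM per kb of gene. On that scale Efnb3, a transmembrane ephrin of 6.11 kb, was at 7.85 CPM per kb. Unc5d, a netrin receptor family member with the highest CPM of the set (1058), was at 1.85 CPM per kb, and Efna5, a GPI-anchored ephrin, was at 1.65. Dcc, the next in CPM at 677, was at 0.617 CPM per kb. The order of CPM between these genes was thus not the order per kb. At a fixed depth of 1000 UMIs per nucleus, neurons of either side held a median of 5 members per nucleus, so the typical number per nucleus was the same on both sides.

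The first comparison asked which members differed between neurons with the PVH hashtag and neurons with the ARC hashtag. Of the 55 members, 10 were 1.5-fold or more higher on the PVH side (18.2%, against 4.46% of the 14040 genes with 100 or more UMIs) and 3 on the ARC side (5.45%, against 4.07% of those genes). The PVH list held the ligands Slit2, Slit3, Sema3c and Sema3d, the netrin-G Ntng1 and the receptors Robo1, Epha6, Epha7, Epha10 and Ephb1. The ARC list held the netrin receptor Unc5b and the ephrins Efna5 and Efnb2. The median log2 ratio of PVH over ARC was 0.04 for the members and -0.05 for all genes. A ratio between sides joins which kinds of neuron each side holds with the level in each kind, and ratios within clusters follow further on. When only the 4 clusters that hold at least 50 nuclei of each side entered and were weighted equally, 0 of 46 members were 1.5-fold higher on the PVH side (2.04% of all genes there) and 2 on the ARC side (4.35%, against 1.89%).

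**Figure D1:**
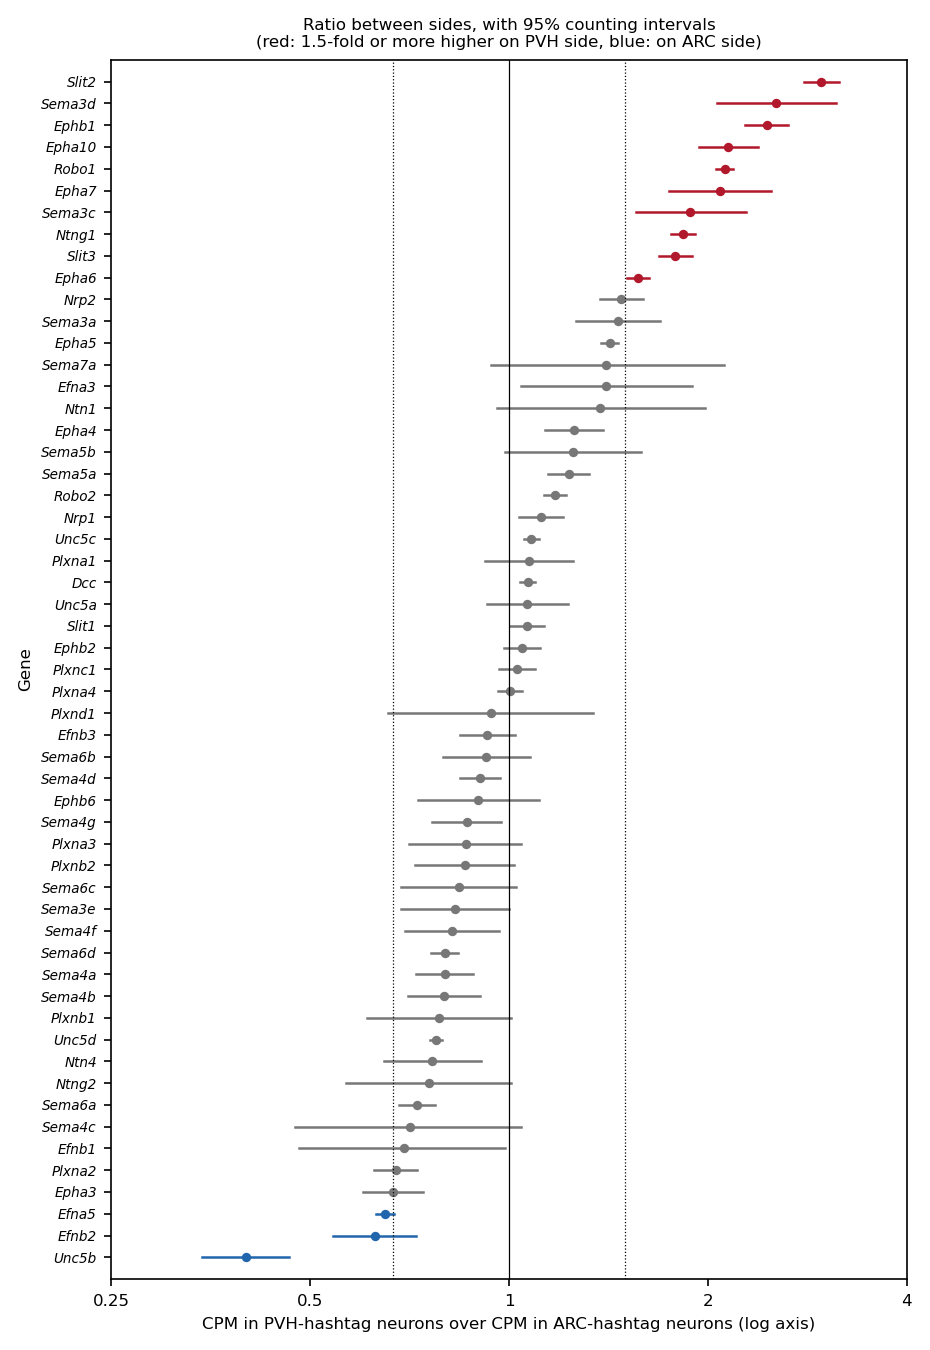
Ratio of CPM in PVH-hashtag over ARC-hashtag neurons for the 55 members with 100 or more UMIs, on a log axis, with bars for 95% counting intervals and dotted lines at 1.5-fold in either direction. Slit2 stands at the top at 2.97-fold and Unc5b at the bottom at 0.400-fold, and most members lie between the dotted lines.

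Slit2 had the largest ratio towards the PVH side. This secreted repellent was at 77.4 CPM (73.5 to 81.4) in ARC-hashtag neurons and 229.7 CPM (223 to 237) in PVH-hashtag neurons, 2.97-fold (2.8 to 3.15). Slit3 was at 104 CPM (99.8 to 109) and 186 CPM (179.8 to 193), 1.79-fold (1.69 to 1.89) higher on the PVH side, while Slit1 was at 118 CPM (113 to 123) and 126 CPM (121 to 131). The intervals of the sides lay far apart for Slit2 and Slit3 and overlapped for Slit1. Of their receptors, Robo1 was at 339 CPM (331 to 348) on the ARC side and 719 CPM (706 to 732) on the PVH side, 2.12-fold (2.06 to 2.19). Robo2 was at 267 CPM (260.1 to 275) and 313 CPM (305 to 322), a ratio of 1.17 (1.13 to 1.22). The Slit and Robo family members that moved most thus did so in the same direction. Reads of Slit2 and Slit3 are uncertain, since each overlaps another gene of the matrix on its strand.

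The gene bodies of these members lie at chr5:47983138-48307733 (Slit2, plus strand), chr16:72308306-73046095 (Robo1, plus strand) and chr10:60762593-60831581 (Unc5b, minus strand) on GRCm38. The sequence before a RefSeq start site is shown for the ligand and the receptor that rose most towards the PVH side among Slits and Robos, and for the member with the largest ratio towards the ARC side. The stretches are from the RefSeq promoter table for GRCm38.p6, 5′ to 3′ on the gene's strand, at chr5:47982905-47983137, chr16:72662899-72663148 and chr10:60831582-60831831, cut where an annotated exon begins. The Robo1 stretch lies inside the gene body, before an internal start of the annotation, and other Robo1 transcripts start upstream of it. Capitals mark the letters TATAAA, a core promoter motif found near the start of some genes. These letters were sought on both strands, and so was a second motif, ACGTG, which is the core of hypoxia response elements and does not overlap the first.
Slit2: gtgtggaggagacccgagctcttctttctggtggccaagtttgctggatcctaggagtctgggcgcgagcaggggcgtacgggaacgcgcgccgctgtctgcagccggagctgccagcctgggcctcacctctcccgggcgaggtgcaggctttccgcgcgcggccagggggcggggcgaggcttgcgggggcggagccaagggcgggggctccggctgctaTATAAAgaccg
Robo1: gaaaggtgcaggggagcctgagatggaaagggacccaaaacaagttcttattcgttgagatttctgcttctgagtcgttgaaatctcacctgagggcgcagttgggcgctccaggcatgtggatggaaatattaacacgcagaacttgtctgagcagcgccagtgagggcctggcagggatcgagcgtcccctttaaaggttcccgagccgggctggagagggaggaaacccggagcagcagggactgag
Unc5b: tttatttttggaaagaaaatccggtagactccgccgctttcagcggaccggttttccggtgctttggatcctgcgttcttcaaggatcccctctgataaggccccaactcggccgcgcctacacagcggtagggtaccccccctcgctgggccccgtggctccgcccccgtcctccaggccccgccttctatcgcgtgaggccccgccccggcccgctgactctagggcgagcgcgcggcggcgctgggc
Slit2 carried 1 TATAAA close to its start, and the other stretches had neither motif. In windows of 250 bases before the start, TATAAA was found in 12.4% of 32851 RefSeq windows and in 2 of the 62 windows of the 47 members that were past the minimum and in the table, and ACGTG in 16.6% and in 10 of 62. The same 62 windows held a median of 16.5 CG dinucleotides and 64.4% G and C, against 6 and 52.4% over all windows. A motif match describes the letters and shows no binding.

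Among the semaphorins, 2 of 17 members past the minimum were higher on the PVH side, against 4.46% of all genes, and both are secreted class 3 ligands. Sema3d was at 7.06 CPM (5.93 to 8.35) on the ARC side and 17.9 CPM (15.9 to 20.1) on the PVH side, 2.54-fold (2.06 to 3.13), and Sema3c was at 9.14 CPM (7.84 to 10.6) and 17.2 CPM (15.3 to 19.3), 1.88-fold (1.55 to 2.28). Sema3a, the classical neuropilin-1 ligand, was at 17.3 CPM (15.5 to 19.3) and 25.4 CPM (23 to 27.9) and missed the 1.5-fold limit at 1.46-fold (1.26 to 1.69). The transmembrane semaphorins Sema6a and Sema6d went the other way without reaching the limit, Sema6a at 133 CPM (128 to 138) and 96.7 CPM (92 to 102) and Sema6d at 218 CPM (211 to 225) and 174 CPM (168 to 181). Of the semaphorin receptors, none of 8 plexins passed the limit over all neurons, with ratios of 0.674 to 1.07. The neuropilins Nrp1 and Nrp2 were at 1.12 (1.03 to 1.21) and 1.48 (1.37 to 1.59). Only 4.46% of all genes passed it towards the PVH and 4.07% towards the ARC, so nothing is read from a count in so few genes. The lowest plexin ratio was that of Plxna2, just short of 1.5-fold towards the ARC.

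In the netrin system, the membrane-anchored Ntng1, which binds the synaptic protein Lrrc4c and not Dcc, was at 194 CPM (188 to 201) in ARC-hashtag and 357 CPM (348 to 366) in PVH-hashtag neurons, 1.83-fold (1.76 to 1.91). Unc5b, a receptor for repulsion by netrin-1, was at 35.2 CPM (32.6 to 38) on the ARC side and 14.1 CPM (12.3 to 16) on the PVH side, 2.5-fold (2.15 to 2.92) higher on the ARC side. Its relatives were closer to equal, with Unc5d at 1180.2 CPM (1165 to 1196) and 916 CPM (901 to 930.4), and Dcc at 656 CPM (645 to 668) and 700.2 CPM (688 to 713). The gene of secreted netrin-1, Ntn1, was at 3.06 CPM (2.33 to 3.95) and 4.21 CPM (3.28 to 5.32) with intervals that overlapped.

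In the ephrin system, the members past the limit were receptors on the PVH side and ligands on the ARC side. Of all genes, 4.46% passed it on the PVH side and 4.07% on the ARC side. The ARC share over the whole set, 5.45%, was near that of all genes. Whether receptors and ligands differ as groups was not tested. Of 9 Eph receptors past the minimum, 4 were higher on the PVH side: Ephb1 at 53.9 CPM (50.7 to 57.3) against 132 CPM (127 to 138) (2.45-fold), Epha10 at 29.97 CPM (27.6 to 32.5) against 64.4 CPM (60.6 to 68.3) (2.15-fold), Epha7 at 10.2 CPM (8.8 to 11.7) against 21.2 CPM (19.1 to 23.6) (2.09-fold) and Epha6 at 248 CPM (241 to 255) against 388 CPM (379 to 398) (1.57-fold). Epha10 is the member of this group whose kinase is inactive. Epha5 fell short at 1.42-fold (1.38 to 1.46), from 416 CPM (407 to 426) to 591 CPM (579 to 603). Of 5 ephrin ligands, 2 were higher on the ARC side. Efna5 was at 545 CPM (535 to 556) on the ARC side against 354 CPM (345 to 363), 1.54-fold (1.49 to 1.59), and Efnb2 at 27.8 CPM (25.5 to 30.3) against 17.4 CPM (15.5 to 19.6), 1.6-fold (1.38 to 1.85). No Eph receptor passed the limit towards the ARC, although Epha3 came close at 1.5-fold (1.35 to 1.66), and no ephrin passed it towards the PVH. Efna3 was the ephrin nearest to that limit, at 1.4-fold (1.04 to 1.89).

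The clusters 3, 4, 5 and 11 held at least 50 nuclei of each hashtag, so that sides could be compared within a kind of neuron. Cluster 3 (238 ARC and 444 PVH nuclei) is GABAergic and passed the marker rule for both dopaminergic and suprachiasmatic neurons, and so stayed unnamed. Cluster 4 (110 and 404) is glutamatergic with Lhx9 and Ebf2. It passed the marker rule for thalamus-like neurons with Tcf7l2, Gbx2 and Slc17a6, but stayed unnamed because Slc17a6 marks glutamatergic clusters in general. Cluster 5 (321 and 182) is dopaminergic-like, and cluster 11 (195 and 68) is VMH-like, with Nr5a1 and Fezf1 of the ventromedial hypothalamus. In cluster 4, 10 of 28 members with enough UMIs were 1.5-fold or more higher with the PVH hashtag, against 6.64% of all genes there, and 2 with the ARC hashtag, against 4.45%. In cluster 5 the counts were 6 and 6 of 24 (3.85% and 4.63% of all genes), in cluster 3 they were 3 and 1 of 30 (2.91% and 1.8%), and in cluster 11 they were 0 and 0 of 23 (1.83% and 3.88%).

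**Figure D2:**
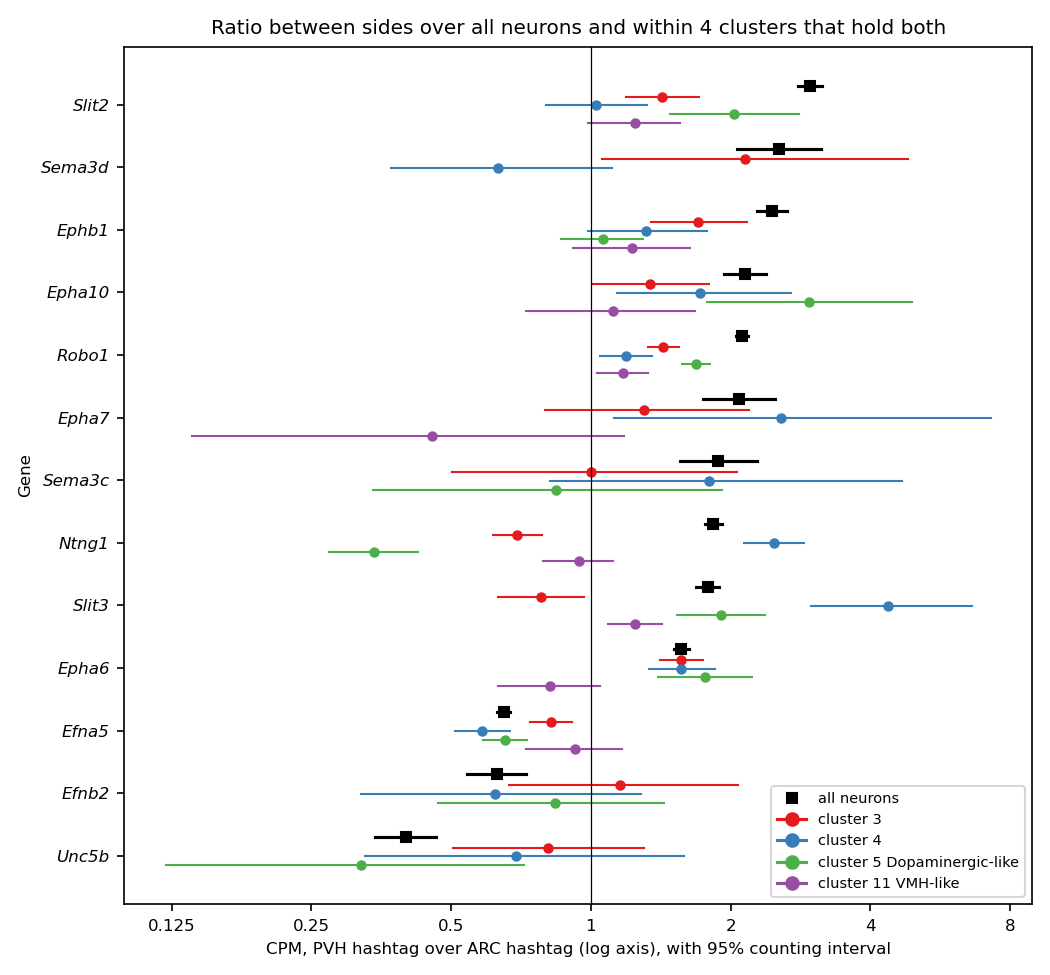
Ratio of CPM with the PVH hashtag over CPM with the ARC hashtag on a log axis, for the 13 members past 1.5-fold over all neurons (black squares) and within the 4 clusters that hold both hashtags (coloured points), with bars for 95% counting intervals; points with under 30 UMIs are not drawn. Epha6 lies near its overall ratio in 3 of the 4 clusters, whereas Ntng1 and Slit3 lie on both sides of 1.

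Some members kept their direction in most of these clusters. Epha6 was 1.57 (1.41 to 1.74), 1.57 (1.33 to 1.85) and 1.76 (1.39 to 2.23) in clusters 3, 4 and 5, and 0.817 (0.631 to 1.05) in cluster 11. Robo1 was above 1 in each of the 4, at 1.43 (1.33 to 1.55), 1.19 (1.05 to 1.35), 1.68 (1.57 to 1.81) and 1.17 (1.03 to 1.33), below its ratio over all neurons in every cluster. Efna5 was below 1 in each, at 0.822 (0.741 to 0.913), 0.583 (0.509 to 0.67), 0.652 (0.584 to 0.727) and 0.923 (0.726 to 1.17), the last with an interval that includes 1. Slit2, the member with the largest ratio over all neurons, was 1.42 (1.19 to 1.71) in cluster 3, 1.02 (0.802 to 1.32) in cluster 4, 2.04 (1.48 to 2.8) in cluster 5 and 1.24 (0.988 to 1.56) in cluster 11. In each of these 4 clusters its ratio was below that over all neurons, and none of the 4 is a Sim1-like cluster. Unc5b, with the largest ratio towards the ARC side over all neurons, was 0.806 (0.505 to 1.3) and 0.689 (0.326 to 1.58) in clusters 3 and 4. It was 0.319 (0.121 to 0.716) in cluster 5 and 2.11 (0.31 to 12.5) in cluster 11, so only the interval in cluster 5 was clear of 1.

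Other members went opposite ways. Ntng1 was at 355 CPM with the ARC hashtag and 877 with the PVH hashtag in cluster 4, a ratio of 2.48 (2.13 to 2.88), but at 343 and 117 in the dopaminergic-like cluster, a ratio of 0.342 (0.273 to 0.424), at 0.694 (0.615 to 0.783) in cluster 3 and at 0.941 (0.789 to 1.12) in cluster 11. Slit3 was 4.36 (2.98 to 6.63) in cluster 4, 1.91 (1.53 to 2.37) in cluster 5 and 1.25 (1.09 to 1.42) in cluster 11, but 0.78 (0.631 to 0.966) in cluster 3. For both genes the intervals in some clusters lie on opposite sides of 1. Sema6d, at 0.799 over all neurons, was lower with the PVH hashtag in clusters 3, 4 and 5, at 0.563 (0.483 to 0.656), 0.497 (0.423 to 0.585) and 0.382 (0.322 to 0.451), and was at 1.17 (0.74 to 1.82) in cluster 11. Epha7 was 1.3 (0.794 to 2.19) in cluster 3 and 2.57 (1.12 to 7.27) in cluster 4, but 0.374 (0.0933 to 1.11) in cluster 5 and 0.455 (0.138 to 1.18) in cluster 11, with few UMIs and only the interval in cluster 4 clear of 1, and with these 4 clusters weighted equally its log2 ratio was -0.0073. Epha5 was 1.35 (1.22 to 1.49) and 1.55 (1.37 to 1.77) in clusters 3 and 4, and 0.706 (0.622 to 0.799) and 0.772 (0.665 to 0.894) in clusters 5 and 11. Plxna2, at 0.674 over all neurons, was 1.3 (1.00 to 1.7) and 1.69 (1.06 to 2.8) in clusters 3 and 4. It was 0.869 (0.566 to 1.31) and 0.75 (0.495 to 1.11) in clusters 5 and 11. Plxna4 was 3.72 (2.92 to 4.76) in cluster 5 but 0.838 (0.737 to 0.953) in cluster 3. Nrp1 was 0.44 (0.27 to 0.69) in cluster 5, with intervals that include 1 in clusters 3, 4 and 11. Sema3d was 2.15 (1.06 to 4.82) and 2.01 (0.8 to 4.87) in clusters 3 and 11, and 0.63 (0.37 to 1.11) and 0.561 (0.0568 to 2.94) in clusters 4 and 5. Only its interval in cluster 3 was clear of 1. Whether the same cluster holds different subtypes on each side was not tested.

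The second comparison set 12 glutamatergic clusters (3119 nuclei), with more Slc17a6 than Slc32a1, against 8 GABAergic clusters (3618 nuclei). Of the 55 members, 9 were 1.5-fold or more higher in glutamatergic clusters (16.4%, against 3.35% of all genes tested) and 4 in GABAergic clusters (7.27%, against 2.72%). The 9 were the semaphorins Sema3a, Sema3c, Sema5a and Sema5b, the Slits Slit2 and Slit3, the netrin-Gs Ntng1 and Ntng2 and the plexin Plxnd1. The 4 were the receptors Epha3, Nrp1 and Plxna2 and the ephrin Efnb2. The order of the transporters was not firm in cluster 6, where Slc17a6 was at 42.9 CPM (34.4 to 52.8) and Slc32a1 at 37.6 (29.7 to 46.9), and without that cluster the counts were again 9 and 4, but with Ephb1 (log2 ratio 0.62) past the limit in place of Sema5b (0.48). Sema5b was past the limit in 5 of 11 alternatives.

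Plxnd1, the receptor that binds Sema3e without a neuropilin, was at 5.51 CPM (4.45 to 6.74) in glutamatergic and 2.13 CPM (1.52 to 2.9) in GABAergic clusters, 2.59-fold (1.77 to 3.85). Sema3a was at 30.04 CPM (27.5 to 32.8) and 12.9 CPM (11.3 to 14.7), 2.33-fold (1.99 to 2.72). Sema5a, a transmembrane semaphorin with thrombospondin repeats, was at 121 CPM (116 to 126) and 52.3 CPM (49.1 to 55.6), 2.31-fold (2.14 to 2.5). The ratios were also read on each side alone. For Sema3a the ratio was 1.07 (0.85 to 1.33) among ARC-hashtag and 6.31 (4.61 to 8.83) among PVH-hashtag neurons, whereas Sema5a was at 2.42 (2.17 to 2.69) and 2.14 (1.91 to 2.41). Slit2 was at 209 CPM (202 to 216) and 92.4 CPM (88.1 to 96.9), with ratios of 3.12 (2.8 to 3.48) on the ARC side and 1.53 (1.43 to 1.64) on the PVH side. Sema5a and Slit2 thus kept their order on both sides and Sema3a did so on the PVH side.

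Ntng1 was at 375 CPM (366 to 385) in glutamatergic and 173 CPM (168 to 179.6) in GABAergic clusters, 2.16-fold (2.07 to 2.26), and Slit3 at 188 CPM (181 to 194) and 101 CPM (96.5 to 106), 1.86-fold (1.76 to 1.97). Sema3c was at 16.9 CPM (15 to 19) and 9.2 CPM (7.88 to 10.7), 1.84-fold (1.52 to 2.23). Its ratio was 1.17 (0.854 to 1.59) among ARC-hashtag and 2.18 (1.66 to 2.89) among PVH-hashtag neurons. For Ntng2, the relative of Ntng1 that binds Lrrc4, the levels were 8.14 CPM (6.84 to 9.61) and 3.78 CPM (2.95 to 4.76), but its ratio was 6.1 (3.93 to 9.79) on the ARC side and 0.62 (0.392 to 0.977) on the PVH side. Sema5b was likewise 4.03 (2.76 to 5.99) on the ARC side and 0.839 (0.601 to 1.17) on the PVH side, from 10.5 CPM (9.06 to 12.2) and 5.8 CPM (4.76 to 6.99) in all. The overall difference of Ntng2 and Sema5b was that of ARC-hashtag neurons.

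Towards the GABAergic side, Epha3 was at 57.4 CPM (54 to 60.9) in GABAergic and 28.7 CPM (26.2 to 31.4) in glutamatergic clusters, 2.00-fold (1.8 to 2.23). Its ratio of glutamatergic over GABAergic was 0.319 (0.269 to 0.377) on the ARC side and 0.939 (0.793 to 1.11) on the PVH side. Plxna2, a plexin for class 3 and class 6 semaphorins, was at 104 CPM (99.6 to 109) and 59.4 CPM (55.8 to 63.2), 1.75-fold (1.62 to 1.89). Nrp1 was at 90.4 CPM (86.1 to 94.8) and 53.4 CPM (49.9 to 56.9), 1.69-fold (1.56 to 1.84), and Efnb2 at 28.4 CPM (26 to 30.9) and 17.1 CPM (15.2 to 19.2), 1.66-fold (1.44 to 1.92). These last 3 were higher in GABAergic neurons of either hashtag, but with a hashtag quantile of 0.99, which keeps 1636 nuclei, the log2 ratio of glutamatergic over GABAergic was 0.064 for Nrp1.

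The differences between sides were also read within each transmitter. Sema3d had a PVH over ARC ratio of 4.2 (3.17 to 5.62) in GABAergic clusters and 1.44 (1.06 to 1.98) in glutamatergic clusters. Robo1 was at 2.93 (2.81 to 3.05) and 1.51 (1.44 to 1.58), and Slit2 at 4.15 (3.74 to 4.61) and 2.03 (1.89 to 2.19). For these 3 the ratio was larger among GABAergic neurons. Unc5b was the reverse, at 0.258 (0.208 to 0.319) in glutamatergic and 0.604 (0.484 to 0.75) in GABAergic clusters. Epha6 (1.57 (1.48 to 1.67) and 1.66 (1.58 to 1.74)) and Epha7 (2.17 (1.65 to 2.88) and 2.06 (1.62 to 2.63)) had much the same ratio in glutamatergic and GABAergic neurons. For 10 of the 55 members (18.2%, against 4.08% of all genes) the intervals lay on opposite sides of 1. Intervals narrow with depth, and the median was 1504 UMIs for members and 955 for all genes past the minimum. In glutamatergic and GABAergic clusters, the ratio was 2.19 (1.79 to 2.68) and 0.369 (0.26 to 0.514) for Sema3a, 1.62 (1.49 to 1.75) and 0.502 (0.467 to 0.539) for Sema6d, 1.58 (1.49 to 1.67) and 0.689 (0.646 to 0.734) for Robo2 and 1.5 (1.24 to 1.82) and 0.509 (0.44 to 0.587) for Epha3, all higher on the PVH side among glutamatergic neurons only. Ntng2, at 0.294 (0.197 to 0.431) and 2.89 (1.75 to 4.88), went the other way, and the remaining 5 were Plxna4, Plxnc1, Sema5b, Slit1 and Unc5c. Differences between these ratios were not tested.

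Many members were concentrated in 1 kind of neuron. By the rule of 3-fold or more in the highest cluster over all other neurons, with 20 or more UMIs there, 21 of 55 members were concentrated (38.2%), against 7.98% of all genes tested. The median fold of the highest cluster was 2.67 for members and 1.57 for all genes. Members were kept out of the genes used for clustering, but they correlate with genes that were used, and the highest of 20 clusters is always above the rest, so these folds describe the clusters. The highest clusters of the 21 members were 14 different clusters, with 3 members each for the Sim1-like clusters 7 and 8.

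**Figure D3:**
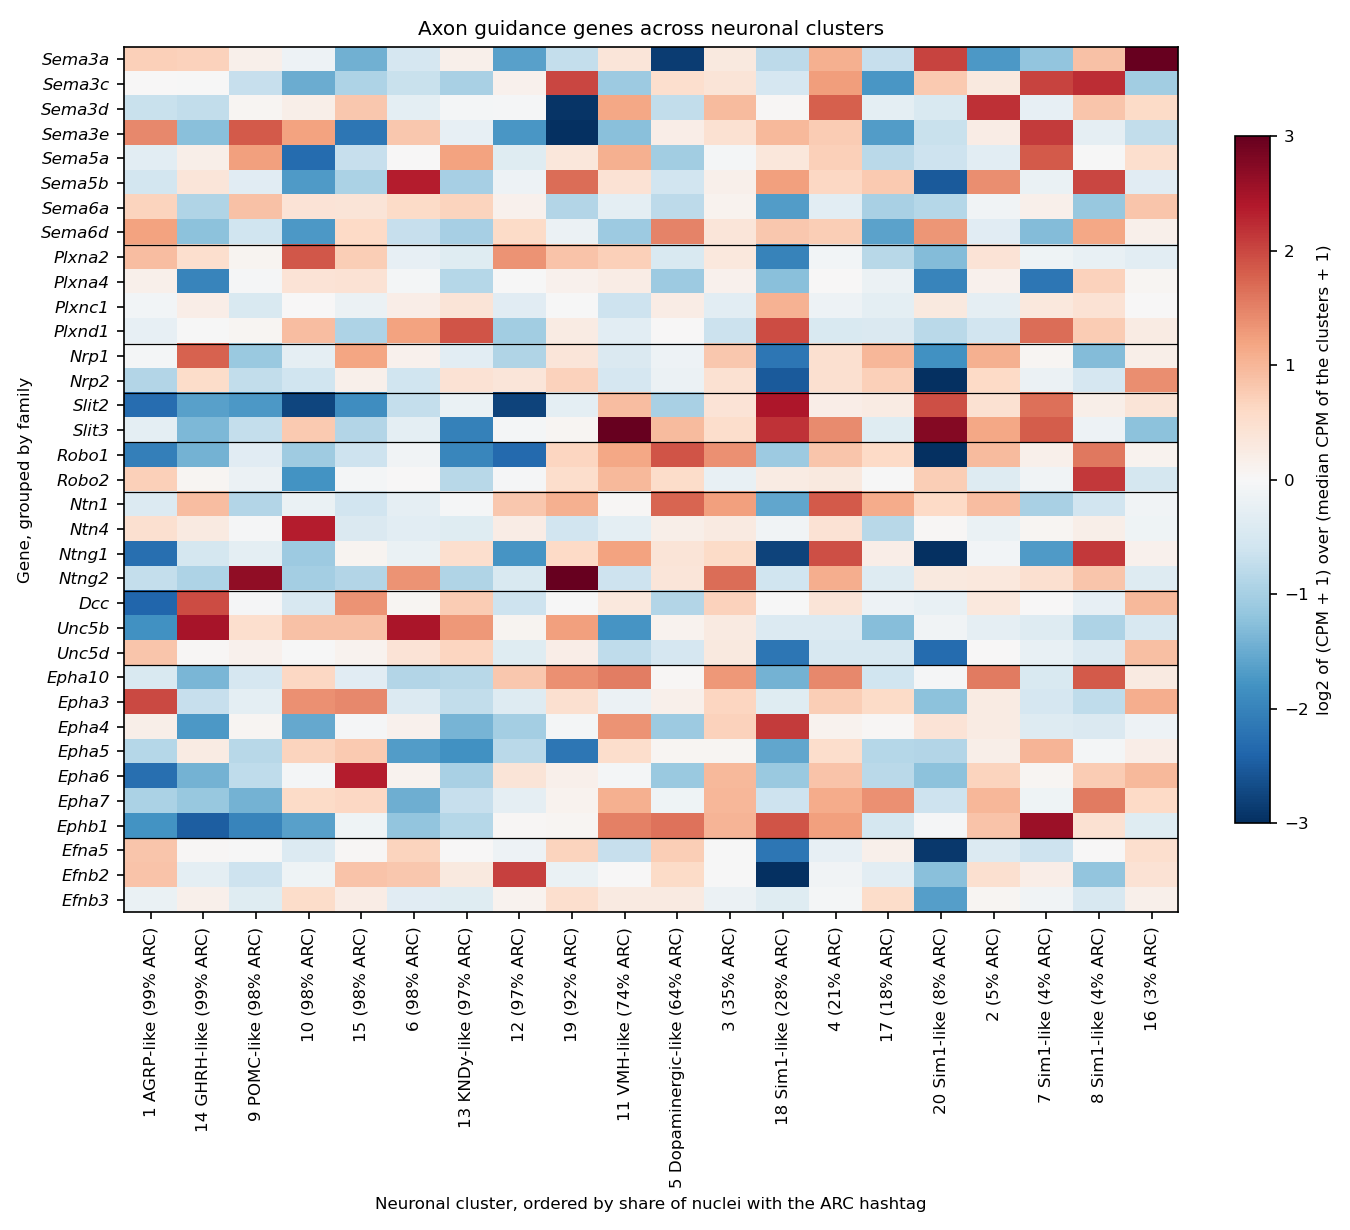
Level of the 35 members named by the rule (rows, grouped by family) in the 20 neuronal clusters (columns, ordered by share of ARC-hashtag nuclei), as log2 of CPM plus 1 over the median CPM of the clusters plus 1. Red squares such as Sema3a in cluster 16, Ntng2 in cluster 19 and Slit3 in the VMH-like cluster 11 stand out from their rows, and no column is red or blue throughout.

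Cluster 16 is an unnamed glutamatergic cluster with Sim2 and Ebf1 and nearly all of its nuclei from the PVH side. Of the Sim1-like markers it passed Sim1 and Trh, fewer than the 3 that the name needed. Among secreted ligands, Sema3a was at 162 CPM (139.8 to 187) in cluster 16, 9.89-fold (8.34 to 11.7) higher than in other neurons. The next level was 63.3 CPM (47.7 to 82.4) in the Sim1-like cluster 20 with oxytocin, and the lowest 1.21 CPM (0.249 to 3.54) in the dopaminergic-like cluster. Slit3 was at 715 CPM (672 to 759) in VMH-like neurons, 6.07-fold (5.67 to 6.5), ahead of 481 CPM (436 to 529) in cluster 20. Slit2 was at 706 CPM (647 to 770.2) in the Sim1-like cluster 18, 5.18-fold (4.72 to 5.67), followed by 502 CPM (456 to 551) and 413 CPM (385 to 442) in the Sim1-like clusters 20 and 7. Each of these orders is outside the intervals of the levels. In the lowest clusters Slit2 was at 18.2 CPM (11.4 to 27.5) and Slit3 at 16.7 CPM (9.89 to 26.4). The fourth Sim1-like cluster, cluster 8, held Slit2 at 148 CPM (132 to 166), so the Sim1-like clusters were not alike.

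**Figure D4:**
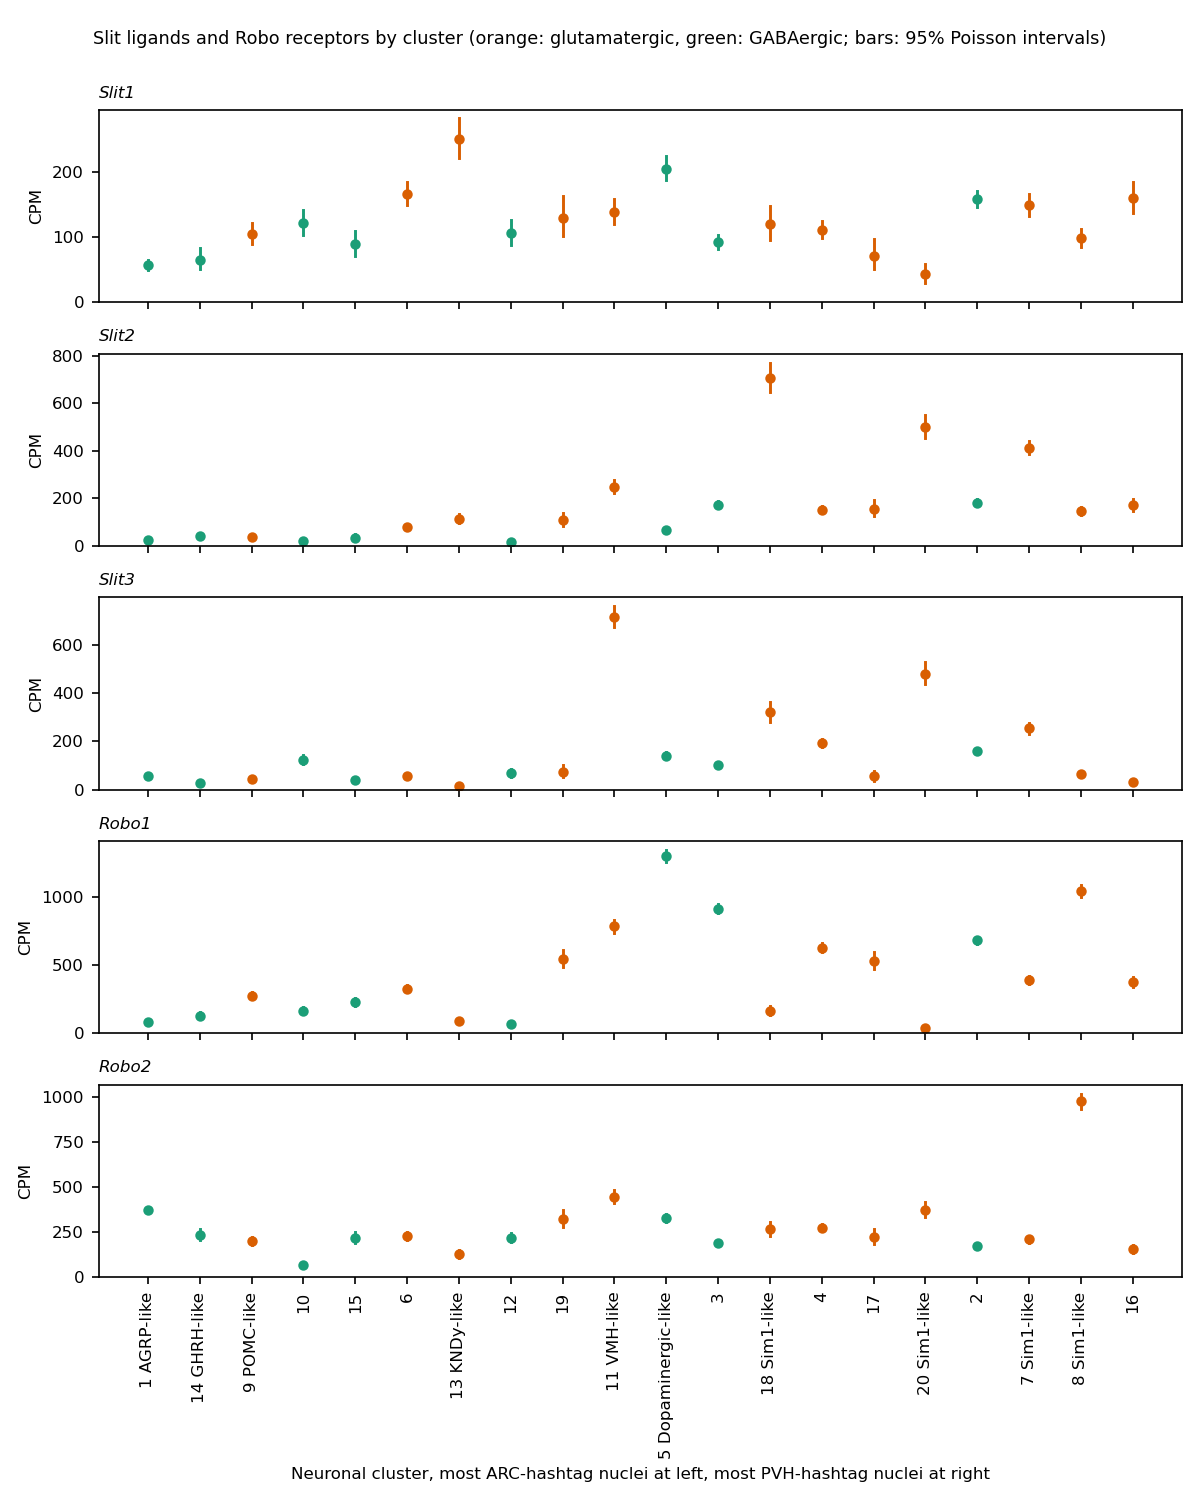
CPM of Slit1, Slit2, Slit3, Robo1 and Robo2 in each neuronal cluster, ordered from most ARC-hashtag nuclei at left to most PVH-hashtag nuclei at right, with 95% Poisson intervals, orange for glutamatergic and green for GABAergic clusters. Slit2 peaks in 3 Sim1-like clusters and Slit3 in the VMH-like cluster, while Robo1 is highest in the dopaminergic-like cluster and Robo2 in the Sim1-like cluster 8.

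Their receptors had other peaks. Robo1 was at 1298 CPM (1253 to 1343) in dopaminergic-like neurons and 1046 CPM (1002 to 1091) in the Sim1-like cluster 8, but at 36.8 CPM (25.2 to 52) in cluster 20. Robo2 was at 976 CPM (934 to 1020.2) in cluster 8, 3.95-fold (3.76 to 4.15), with 446 CPM (413 to 482) in the VMH-like cluster next. In the Sim1-like clusters 18 and 7, Robo1 was at 165 CPM (137 to 197) and 392 CPM (365 to 421). Of the 4 Sim1-like clusters, 18 and 20 thus had the most Slit2 and the least Robo1, cluster 8 had the most Robo1 and the least Slit2, and cluster 7 lay between.

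Another 3 class 3 semaphorins were concentrated in 1 cluster. Sema3d was at 34.3 CPM (28.8 to 40.6) in cluster 2, 3.68-fold (2.98 to 4.52), Sema3c at 42.2 CPM (33.8 to 52.2) in cluster 8, 3.8-fold (2.97 to 4.82), and Sema3e at 37.1 CPM (29.2 to 46.6) in the Sim1-like cluster 7, 3.18-fold (2.45 to 4.08), with 30.8 CPM (23 to 40.3) in POMC-like neurons. The intervals of Sema3e in these last clusters overlap. Of the transmembrane semaphorins, Sema5a was at 249.99 CPM (229 to 273) in cluster 7, 3.32-fold (3.01 to 3.66), and Sema5b at 28.4 CPM (21.6 to 36.7) in cluster 6, 4.18-fold (3.08 to 5.58). Sema6d had its highest level, 418 CPM (393 to 444), in dopaminergic-like neurons and Sema6a, at 199.9 CPM (179 to 222), in POMC-like neurons, both under 3-fold.

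Plxna2 was at 236 CPM (210.4 to 264) in cluster 10, a GABAergic ARC cluster with Htr3b and Vgll3, 3.06-fold (2.71 to 3.45). Plxna4, Plxnc1, Nrp1 and Nrp2 were under 3-fold in their highest cluster: Plxna4 ranged over clusters from 56.7 to 419 CPM, Plxnc1, the Sema7a receptor, from 74.2 to 239, Nrp1 from 12.4 to 204 and Nrp2 from 3.45 to 201. Nrp1 was highest in GHRH-like neurons and Nrp2 in cluster 16, where Sema3a was also highest.

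The netrin family held the sharpest peak of the set. Ntng2 was at 64 CPM (45.1 to 88.2) in cluster 19, a small glutamatergic ARC cluster with Smoc2, 13.1-fold (8.9 to 18.7), and at 21.9 CPM (15.4 to 30.2) in POMC-like neurons. Ntng1 was at 889.9 CPM (849 to 932) in cluster 8 and 777 CPM (745 to 810.2) in cluster 4, against 17.3 CPM (9.66 to 28.5) in cluster 20. The 2 netrin-Gs therefore peaked in different clusters. Ntn4, a laminin-like netrin of basement membranes, was at 72.3 CPM (58.3 to 88.5) in cluster 10, 5.05-fold (4.00 to 6.31), and Ntn1 reached 9.52 CPM (6.27 to 13.9) in cluster 4, 3.08-fold (1.94 to 4.75), with intervals that overlap the next cluster. Ntng2 and Ntn1 overlap another gene of the matrix on their strand, so their reads are uncertain.

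Among netrin receptors, Dcc was at 2301 CPM (2213 to 2393) in GHRH-like neurons, 3.68-fold (3.53 to 3.84), and at 1494 CPM (1421 to 1571) in cluster 15, a GABAergic ARC cluster with Glp1r. It was lowest in AGRP-like neurons, at 113 CPM (103 to 123). Unc5b was also highest in GHRH-like neurons, at 108 CPM (89.5 to 129), 4.74-fold (3.87 to 5.75), with 106 CPM (92.5 to 121) in cluster 6, and also lowest in AGRP-like neurons, at 4.56 CPM (2.75 to 7.12). Unc5d was high in most clusters and reached 1872 CPM (1794 to 1953) in cluster 16 and 1787 CPM (1747 to 1828) in AGRP-like neurons, whose intervals overlap, against 201 CPM (173 to 234) in cluster 20. AGRP-like neurons thus held the lowest Dcc, among the lowest Unc5b and nearly the highest Unc5d. VMH-like neurons were close for Unc5b, at 3.65 CPM (0.995 to 9.35) with the ARC hashtag and 7.72 CPM (1.59 to 22.6) with the PVH hashtag.

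Eph receptors marked several clusters. Epha6 was at 1322 CPM (1253 to 1395) in cluster 15, 4.67-fold (4.41 to 4.95), with 505 CPM (465 to 548) in cluster 16 next. Ephb1 was at 327 CPM (303 to 353) in the Sim1-like cluster 7, 4.29-fold (3.93 to 4.68), Epha4 at 165 CPM (137 to 197) in cluster 18, 4.19-fold (3.45 to 5.05), and Epha3 at 115 CPM (105 to 126) in AGRP-like neurons, 3.37-fold (3.02 to 3.75). All 4 led their next cluster beyond the intervals. Epha5 was highest in cluster 7 at 1020.03 CPM (976 to 1065), Epha10 in cluster 8 at 100.2 CPM (86.9 to 115) and Epha7 in cluster 8 at 34.4 CPM (26.8 to 43.4), each under 3-fold. Of the ephrins, Efnb2 was at 77.6 CPM (62.7 to 95) in cluster 12, a GABAergic ARC cluster with Tmem26 and Pth2r, 3.68-fold (2.93 to 4.56). Efna5 was spread over many clusters, highest in AGRP-like neurons at 758 CPM (732 to 785) and lowest in cluster 20 at 56.4 CPM (41.7 to 74.5), and Efnb3 ranged from 15 to 73 CPM.

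AGRP-like and POMC-like neurons, which drive and restrain feeding, were set side by side, a comparison chosen after the data had been seen. Of the 36 members with 100 or more UMIs over both clusters, 9 were 1.5-fold or more higher in AGRP-like neurons (25%, against 7.44% of 8803 genes) and 7 in POMC-like neurons (19.4%, against 6.08%). The first were Efna5, Efnb2, Epha3, Nrp1, Plxna2, Robo2, Sema3a, Sema6d and Unc5d, and the second were Dcc, Epha6, Ntng1, Robo1, Sema5a, Slit1 and Slit2. The 2 largest ratios among these members were those of receptors. Dcc was at 113 CPM (103 to 123) in AGRP-like and 577 CPM (542 to 615) in POMC-like neurons, 5.13-fold (4.59 to 5.74) higher in POMC-like neurons, and Epha3 was at 115 CPM (105 to 126) and 23.1 CPM (16.4 to 31.5), 5.00-fold (3.61 to 7.13) higher in AGRP-like neurons.

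**Figure D5:**
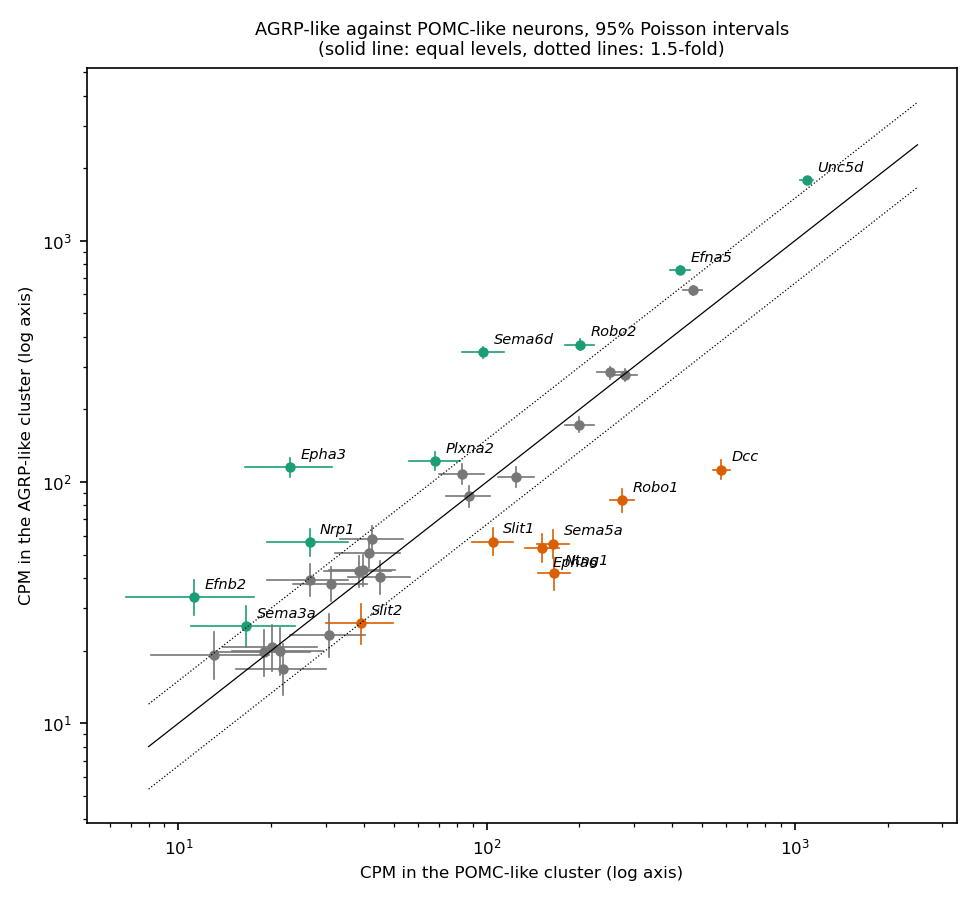
CPM of the 36 members with 100 or more UMIs in the AGRP-like cluster (vertical, log axis) and the POMC-like cluster (horizontal, log axis), with 95% Poisson intervals, a solid line of equal levels and dotted lines at 1.5-fold; green and orange mark members past 1.5-fold towards AGRP-like and POMC-like neurons. Dcc, Robo1 and Ntng1 lie far below the lines, and Epha3 and Sema6d far above them.

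The paired receptors Robo1 and Robo2 went opposite ways. Robo1 was at 84 CPM (75.4 to 93.3) and 275 CPM (251 to 301) in AGRP-like and POMC-like neurons, 3.27-fold (2.84 to 3.77) higher in the latter, and Robo2 at 372 CPM (353 to 391) and 201 CPM (179.7 to 223), 1.85-fold (1.65 to 2.09) higher in the former. In contrast to Dcc, Unc5d was at 1787 CPM (1747 to 1828) and 1092 CPM (1043 to 1143), 1.64-fold (1.55 to 1.72) higher in AGRP-like neurons, while Unc5b, with 64 UMIs under the minimum, was at 4.56 and 26.6 CPM and so went the way of Dcc. Among semaphorins, Sema6d was at 345 CPM (328 to 364) and 97.6 CPM (83.3 to 114), 3.54-fold (3.01 to 4.18) higher in AGRP-like neurons, and Sema5a at 55.4 CPM (48.5 to 63.1) and 164 CPM (146 to 185), 2.97-fold (2.48 to 3.55) higher in POMC-like neurons. Sema3a, at 25.2 CPM (20.6 to 30.5) and 16.6 CPM (11 to 23.9), had a ratio whose interval reached down to 0.995. Both kinds of neuron were low in Slit2, at 25.9 CPM (21.3 to 31.3) and 39 CPM (30.2 to 49.7). For Ntng1 the levels were 41.8 CPM (35.8 to 48.5) and 166 CPM (147 to 186), 3.97-fold (3.27 to 4.82) higher in POMC-like neurons.

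Of 24 pairs of a ligand and a receptor known to bind, 22 had both genes past the minimum. In 0 of these 22 were both genes highest in the same cluster, and nothing is read from this count, since few pairs would share 1 of 20 clusters in any case.

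Of a list of 49 partner genes of the same pathways, 47 passed the minimum. Of these, 4 were 1.5-fold or more higher on the PVH side, 0 on the ARC side, 2 in glutamatergic and 2 in GABAergic clusters. The share for the PVH side is 8.51%, against 4.46% of all genes, while 4.07% of all genes were called on the ARC side. The share for each transmitter is 4.26%, against 3.35% and 2.72%, so those for the transmitters were near the background. The counts per pathway that follow are of 10 to 14 genes, too few to set against these shares. In Slit signalling, 1 of 10 genes moved, Srgap2, whose product binds Robo receptors, at 129 CPM (124 to 134) in ARC-hashtag neurons and 209.5 (203 to 217) in PVH-hashtag neurons. In netrin signalling, 2 of 13 moved, both repulsive guidance molecules that bind the Dcc relative neogenin: Rgma was at 4.99 CPM (4.04 to 6.09) in ARC-hashtag neurons and 20.2 (18.1 to 22.5) in PVH-hashtag neurons, and Rgmb at 8.83 CPM (7.55 to 10.3) in ARC-hashtag neurons and 14.9 (13.1 to 16.9) in PVH-hashtag neurons. Rgma reached 111 CPM in cluster 18, the cluster with most Slit2. In semaphorin signalling, 1 of 14 moved, the small GTPase Rnd1, at 4.93 CPM (3.99 to 6.03) in ARC-hashtag neurons and 7.94 (6.64 to 9.41) in PVH-hashtag neurons. Of 10 genes of ephrin signalling none moved between sides. In glutamatergic clusters the Rac regulator Chn2 was at 0.523 (0.457 to 0.596) and Vav2 at 0.64 (0.475 to 0.858) of the GABAergic level. The exchange factor Vav3 was 1.55-fold (1.34 to 1.79) higher in glutamatergic clusters. Rgma of netrin signalling was 3.07-fold (2.47 to 3.84) higher there.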

How the data were processed

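The deposited matrix held whole-number UMI counts without normalization, which the authors obtained from Cell Ranger (5.0 per the processing notes, 4.0.0 in the header of the matrix) on mm10 per the labels, with the hashtag counts as further rows. Nuclei were filtered as in the study (genes above 800 and below 5000, mitochondrial share up to 1%, total counts up to 12000, each gene in at least 3 nuclei) and demultiplexed with HTODemux at a positive quantile of 0.8, which called 944 nuclei doublets of both hashtags and left 2385 unassigned. Doublets within 1 hashtag are not removed in this way. Singlets of both hashtags were clustered together with Seurat 5.3.0, leidenbase 0.1.32 and R 4.3.3, where the study used Seurat v4, by log-normalization with a scale factor of 10000, 2000 variable genes less the 33 that were members, 30 components, 20 neighbours and Leiden at a resolution of 0.55. Clusters took a class name when the leading marker of its list and 3 or more of the list were 1.5-fold above other neurons, a limit set after the data had been seen. A thalamus-like name was dropped where it had under 3 markers other than Slc17a6, which marks glutamatergic clusters in general, and cluster 4 lost its name in this way. In all, 10 clusters were named and 10 left unnamed. UMIs were summed in Python 3.11.15 with numpy 2.4.6, pandas 2.3.3 and scipy 1.17.1, the summing step was tested on simulated data, and plots were drawn with matplotlib 3.10.9.

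The members, gene lists, fold limits and alternatives were chosen with earlier results of these data known. Genes were named in the text if they were past a limit (1.5-fold between sides or transmitters, 3-fold in the highest cluster) or among the 2 members with most UMIs of their family. Genes given for AGRP-like against POMC-like neurons, and other members within clusters, were chosen after their values were seen. Gene positions are from GENCODE M21 on GRCm38, where 6 members (Ephb1, Ntn1, Ntn3, Ntng2, Slit2 and Slit3) overlap another gene of the matrix on the same strand, and reads of both may be mixed. Of the 55 members with ratios, 47 were found in the RefSeq promoter table. Depth sets the precision of a ratio: the interval of PVH over ARC was 1.04 to 1.09 for Dcc with 24277 UMIs and 0.938 to 2.11 for Sema7a with 104. The alternatives changed the fold limits, UMI minimum, filters, hashtag calls, resolution and the weighting of nuclei.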

Additional observations from a re-analysis of the deposited data

Results flagged for a closer look

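The 104 nuclei of the non-neuronal cluster (80 with the ARC and 24 with the PVH hashtag) entered no comparison. In them, 14 of the 71 members (19.7%, against 6% of all genes of the matrix, many of them without UMIs) had an interval above that in all neurons summed. The 4 described (5.63%, against 0.75%) are those with 20 or more UMIs there and a lower bound over 3 times the upper bound in neurons. Sema4d, a transmembrane semaphorin, was at 390.3 CPM (327 to 462) against 90.3 CPM in neurons, and Sema5a at 408 CPM (343 to 481) against 84.9. Ephb1 was at 364 CPM (303 to 434) against 90.2. Plxnb3, a plexin, was at 143 CPM (106 to 189) against 0.418, with 49 UMIs in the non-neuronal nuclei and 15 in all neurons. This cluster had a median of 2662.5 UMIs per nucleus. It joins astrocytes with cells of the oligodendrocyte lineage, and which of these held the UMIs was not tested.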

How the results depend on the processing

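No paired analysis was possible because there is 1 pooled sample. Of 273 alternative values of the 26 ratios past a limit, 269 kept their direction. The 4 that reversed, as log2 ratios, were Epha7 for PVH over ARC (-0.0073, clusters weighted equally), Nrp1 for glutamatergic over GABAergic (0.064, hashtag quantile of 0.99) and, with PVH-hashtag nuclei alone, Ntng2 (-0.69) and Sema5b (-0.25). Of the 273, 229 were past 1.5-fold in the same direction, and 4 ratios were so under every alternative run (Ntng1, Sema5a, Slit2 and Slit3 for glutamatergic over GABAergic). None of the 13 ratios between sides was. Of 735 alternative values of all named ratios, 296 left the counting interval of the reported value. The share of all genes called by the same rule follows each count. With 2-fold in place of 1.5-fold, 6 members were higher on the PVH side (1.84% of all genes), 1 on the ARC side (1.34%), 0 in GABAergic clusters (0.819%) and 4 in AGRP-like neurons (2.96%), and at 5-fold in place of 3-fold 5 members were concentrated (3.25%). With clusters weighted equally, which keeps only 4 clusters, 0 members were higher on the PVH side (2.04%). With a hashtag quantile of 0.99, which keeps 1636 nuclei, 10 members were concentrated (5.1%). The members higher on the ARC side numbered 5 without upper limits on genes and counts (4.2%), 1 with each nucleus given to its larger hashtag (3.38%), 5 without the 140 nuclei of a side that holds under 10% of their cluster (4.36%), 5 in glutamatergic clusters alone (4.23%) and 7 in GABAergic clusters alone (4.89%). The last 3 alternatives, and those on AGRP-like and POMC-like neurons, were chosen after seeing the data. The cause of these changes was not tested. The remaining counts stayed within 1.5 times. Members under 100 UMIs are too shallow for ratios, and neither mouse nor batch can be separated.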

Other observations

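Some members under the minimum of 100 UMIs had a ratio with a counting interval clear of 1. Sema3f, a secreted ligand of neuropilin-2, had 68 UMIs in neurons and was at 0.831 CPM (0.475 to 1.35) on the ARC side and 3.13 CPM (2.34 to 4.1) on the PVH side, 3.76-fold (2.12 to 7.06). Epha8 had 54 UMIs and was at 0.987 CPM (0.594 to 1.54) and 2.1 CPM (1.47 to 2.93), 2.13-fold (1.19 to 3.95), with level intervals that overlap. Ephb3, with 38 UMIs, was at 0.527 CPM (0.241 to 1.00) in glutamatergic and 1.54 CPM (1.03 to 2.21) in GABAergic clusters, 2.93-fold (1.35 to 7.03) higher in the latter. These genes were chosen after their values were seen.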
